A study of Homo sapiens with 6 samples.

Results

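The genes described here are 62 protein-coding genes along the long arm of chromosome 18 (18q), out of 199 protein-coding genes of that arm in the count tables, which list 63677 identifiers in all. A gene was taken when it lay on the long arm in the GRCh37 build and its mean level over the 6 libraries was 16 CPM or more, where CPM scales counts so that libraries of unequal depth can be compared and was here computed on the library totals. By the same rule 11 named genes were left out, of which 5 would have reached the minimum, and 126 genes lay under it. The members were thus chosen by their mean level in these same libraries, and the arm was taken up because its genes stood high in GFP replicate 3 in an earlier pass over the data. The mean levels and the difference of that library are therefore given as a description, without a test.

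The RNA came from SW480, an established line from a human colorectal adenocarcinoma. Cells were transduced with a lentiviral vector for either green fluorescent protein (GFP), the control, or HA-tagged POU5F1B, a retrogene copy of the pluripotency gene POU5F1, in both cases behind a promoter switched on by doxycycline. All 6 libraries, 3 of GFP cells and 3 of POU5F1B cells, were polyadenylated RNA taken after 72 h in 1 µg/mL doxycycline, so the drug is common to both groups. Transduced cells were selected with puromycin. The labels do not say that the replicates were separate cultures, and a general statement of the study that in vitro work was repeated independently does not name these libraries, so p-values measure the spread between these libraries, which may be technical. The question put to the data was how RNA from one chromosome arm varied between the libraries, and whether it differed between POU5F1B and GFP cells.

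A chromosome arm is a unit of position and not of function. The genes on 18q encode, among other things, ubiquitin ligases, membrane traffic proteins, mitochondrial enzymes and splicing factors, and neighbouring genes are mostly unrelated in sequence. The arm is known in colorectal cancer because tumours often lose one copy of it, and DCC, a netrin receptor gene named for being deleted in that cancer, lies on it.

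The libraries held 10767947 to 12787637 counts, so that a floor of 3 counts amounted to 0.235 to 0.279 CPM. Reads of POU5F1B numbered 6, 5 and 1 in GFP replicates 1, 2 and 3 and 15027, 11393 and 1458 in POU5F1B replicates 1, 2 and 3, in the direction of the labels, with the lowest count of the POU5F1B group in replicate 3. Of 11 epithelial markers, 7 (EPCAM, CDH1, KRT8, KRT18, KRT19, VIL1 and CDX2) had at least 10 counts in every library. The others, CDX1, CDH17, CEACAM5 and LGALS4, did not, and 2 of them had at most 3 counts in every library. The summed level of the epithelial markers was 9565 CPM in GFP replicate 3 and 6351 to 8912 CPM in the other libraries. Leukocyte markers summed to 1.52 to 4.98 CPM with CD68 at 0, and 4 of 5 endothelial markers were found and summed to 1.30 to 6.51 CPM. The leukocyte marker LYZ and the endothelial marker VWF had at least 10 counts in every library. Fibroblast markers summed to 27.4 to 171 CPM in the GFP libraries, with the lowest value in replicate 3, and to 13.4 to 22.5 CPM in the POU5F1B libraries, with COL3A1 at 0. COL1A1 and PDGFRB among them had at least 10 counts in every library. The part of these markers in the results was not tested. GFP replicate 3 stood apart over all chromosomes: of 8268 protein-coding genes at 16 CPM or more, 10.5% were more than 2-fold higher and 5.32% more than 2-fold lower in it than in the mean of GFP replicates 1 and 2, against 0.121% and 0.0605% between GFP replicates 2 and 1. For POU5F1B replicate 3 against POU5F1B replicates 1 and 2 these shares were 1.43% and 0.726%.

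Most 18q genes were higher in GFP replicate 3 than in the other GFP libraries. The difference of log2 CPM between GFP replicate 3 and the mean of GFP replicates 1 and 2 had a median of 0.91 over the 62 genes, which is 1.88-fold, with an interquartile range of 0.49 to 1.30. It was above 0 in 55 of the 62 genes, or 88.7%, against 54.5% of the 8268 protein-coding genes of the same level on all chromosomes, whose median was 0.07. A difference of more than 2-fold upward was found in 28 genes, or 45.2% (background 10.5%), and of more than 2-fold downward in 1 gene, the zinc finger gene ZNF532 (background 5.32%). GFP replicate 3 was the highest of the 6 libraries in 52 of the 62 genes, or 83.9% (background 37.6%), and the lowest in 3 (background 28.7%). In bulk RNA, a larger share of cells that express a gene and more RNA per cell cannot be told apart.

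The minimum level could itself be met through the high library. Without GFP replicate 3, the mean of the other 5 libraries still reached 16 CPM in 56 of the 62 genes. In those 56 the median difference was 0.89, with 49 above 0 and 24, or 42.9%, more than 2-fold higher, where the same count over 8087 genes of all chromosomes gave 9.002%. The other 6 genes (CABLES1, TRAPPC8, SKA1, SEC11C, RTTN and CYB5A) reached the minimum with the help of GFP replicate 3, and all 6 were higher in it.

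Within each group, replicates 1 and 2 were close to one another on 18q. Between GFP replicates 2 and 1 the median difference of the 62 genes was 0.04, between POU5F1B replicates 2 and 1 it was 0.08, and no gene of the 62 differed by more than 2-fold in either pair (background 0.121% higher and 0.0605% lower in the GFP pair, 0.0363% and 0.0605% in the POU5F1B pair). In the POU5F1B pair 44 of 62 genes, or 71.0%, were above 0 against 54.4% of all 8268 genes. In the GFP pair 33 of 62, or 53.2%, were above 0 against 44.4%. POU5F1B replicate 3 lay 0.12 above the mean of POU5F1B replicates 1 and 2 at the median, with 38 of 62 genes, or 61.3%, above 0 against 48.7% of all 8268 genes. In that library 1 gene was more than 2-fold higher, CABLES1 with a log2 difference of 1.38 (background 1.43%), and 1 was more than 2-fold lower, ALPK2 with -1.10 (background 0.726%). Set directly against GFP replicate 3, POU5F1B replicate 3 was above it in 5 of 62 genes, or 8.06%, with a median difference of -0.65, where 48.4% of all genes were above 0 and their median was -0.02. The mean of POU5F1B replicates 1 and 2 lay 0.17 above that of GFP replicates 1 and 2 at the median, with 46 of 62 genes, or 74.2%, above 0 against 52.7% of all genes.

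GC content moved with the difference of GFP replicate 3 over the whole transcriptome. Across 8266 protein-coding genes the Spearman correlation between that difference and the GC content of the transcript was -0.49, a description over genes that share the same libraries. The 18q genes had a median GC content of 42.9% against 48.4% for genes off chromosome 18, and a median transcript length of 4780 against 3496 bases. Within the 62 genes the Spearman correlation with GC content was -0.34, with mean level -0.07 and with transcript length 0.04. When log2 CPM was corrected for GC content and length in each library, the median difference of the 62 genes was 0.58 in place of 0.91, 53 genes were above 0, and 13 genes, or 20.97%, were more than 2-fold higher against 6.33% of all genes under the same correction. Of the genes with named values below, CABLES1 then had a difference of 3.69, ME2 of 1.35, TRAPPC8 of 1.48, FHOD3 of -0.35 and TPGS2 of -0.09. A relation to GC content was not particular to GFP replicate 3. Across the same 8266 genes the Spearman correlation was 0.46 for POU5F1B replicate 3 against POU5F1B replicates 1 and 2. For POU5F1B against GFP in replicates 1 and 2 it was -0.30.

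Among 41 chromosome arms with at least 20 protein-coding genes at the minimum, 18q had the highest median difference of GFP replicate 3. The next arms were 4q with 0.56 over 166 genes, 2p with 0.52 over 244 genes and 6q with 0.45 over 156 genes. At the other end stood 17q with -0.37 over 389 genes and 3p with -0.25 over 246 genes. The short arm of the same chromosome, 18p, had a median of 0.26 over 35 genes, of which 22 were above 0 and 5 were more than 2-fold higher. After the correction for GC content and length 18q was still first, with 0.58, followed by 19p with 0.52 and 21q with 0.48, while 18p turned to -0.12, rank 38 of the 41 arms. In POU5F1B replicate 3 the rank of 18q was 4 of the 41 arms, where 19q with 0.24 and 19p with 0.23 led the order. The genes of 19q and 19p had a median GC content of 58.8% and 60.7%, and the part of GC content in this order was not tested.

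**Figure D1:**
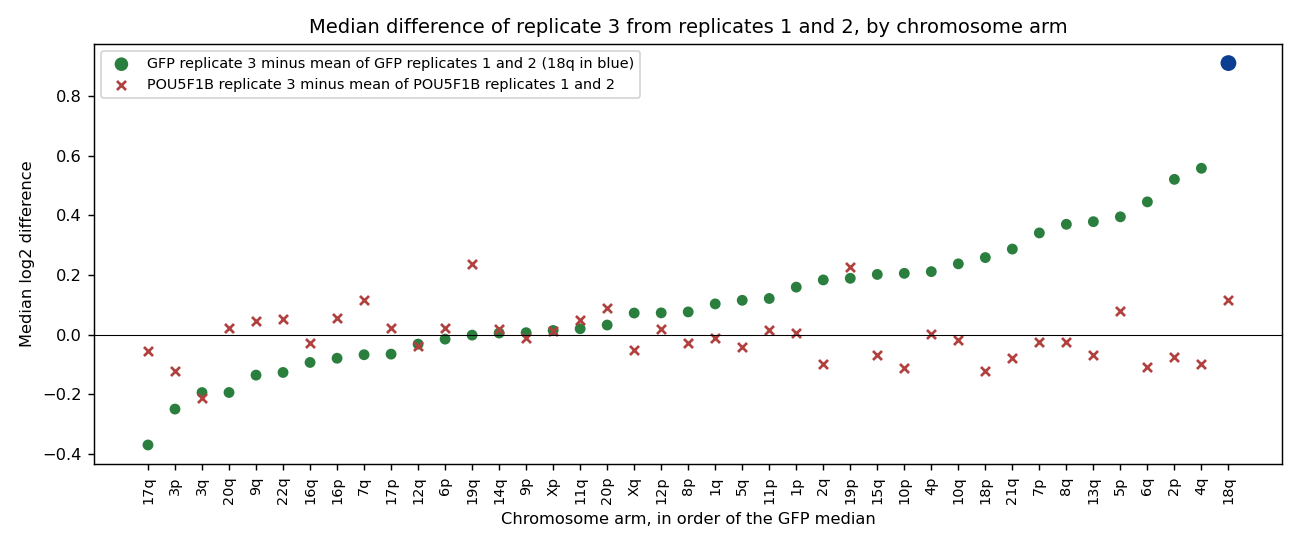
Median log2 difference (vertical axis) of replicate 3 from the mean of replicates 1 and 2 for 41 chromosome arms (horizontal axis, in order of the GFP median); filled circles are the GFP libraries, with 18q in blue, and crosses the POU5F1B libraries. The 18q circle lies at 0.91 and the next arm, 4q, at 0.56, while the 18q cross lies at 0.12.

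Less abundant protein-coding genes of 18q, which the rule did not take, had a similar median in GFP replicate 3. The 44 protein-coding 18q genes under 16 CPM that passed the filter on low counts had a median difference of 0.94 in GFP replicate 3, with 38 above 0 and 21, or 47.7%, more than 2-fold higher. That filter required the count minimum in as many libraries as a group holds. GFP replicate 3 alone could not carry a gene through it, but it could be the library that completed that number. How many of the 44 would pass without it was not counted. Off chromosome 18, 4001 genes of the same low level had a median of -0.02, with 49.1% above 0 and 16.9% more than 2-fold higher. The 11 18q genes of other types that passed the filter had a lower median, 0.26, with 8 above 0 and 2 more than 2-fold higher.

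To follow position, each library was expressed as a shift, the log2 CPM of a gene in that library minus the median of the gene over the 6 libraries. The median shift of the 62 genes was 0.79 in GFP replicate 3, with 57 genes above 0, and lay between -0.16 (GFP replicate 1) and 0.08 (POU5F1B replicate 3) in the other 5 libraries. The genes spread more widely in GFP replicate 3, with an interquartile range of 0.79, than in the others, where the range was 0.13 to 0.26. Over all 8268 genes the interquartile range of the shift in GFP replicate 3 was 0.56.

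In GFP replicate 3 the median shift was above 0 along the whole arm, though small in a stretch towards the centromere. In windows of 10 Mb counted from position 10 Mb of the chromosome, the median difference of GFP replicate 3 from GFP replicates 1 and 2 was 0.70 for the 3 genes nearest the centromere, 0.94 for the next 12 and 1.07 for the 7 after those. It was 0.75 for the 16 genes between 40 and 50 Mb and 0.89 for the 12 genes between 50 and 60 Mb. The last windows towards the telomere gave 0.88 for 5 genes and 1.14 for 7 genes, and in the last window 6 of 7 genes were more than 2-fold higher. A running median over 7 neighbouring genes stayed above 0 at all 56 positions in GFP replicate 3. It ranged from 0.10, in the stretch from RBBP8 to CABYR, to 1.25, in the stretch from OSBPL1A to GALNT1. The same running median was above 0 at 0 positions in GFP replicate 1, 2 in GFP replicate 2, 3 in POU5F1B replicate 1, 49 in POU5F1B replicate 2 and 35 in POU5F1B replicate 3, with a highest value of 0.38 among these libraries.

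**Figure D2:**
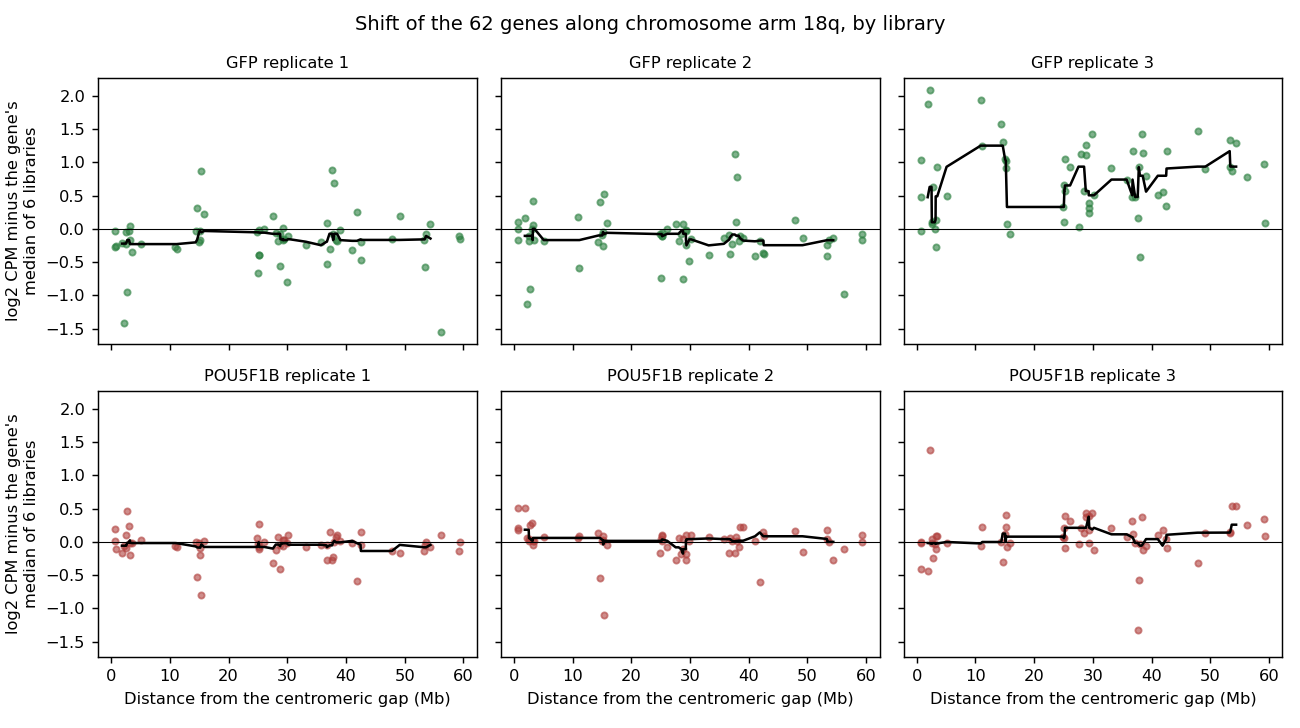
Shift of each of the 62 genes (points; log2 CPM minus the median of the gene over 6 libraries) against distance from the centromeric gap in Mb, 1 panel per library, with the running median over 7 neighbouring genes as a black line. In GFP replicate 3 the line stays between 0.10 and 1.25 along the arm, and in the other panels it ranges from -0.25 to 0.38.

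Position accounted for little of the differences among the 62 genes. The Spearman correlation of the shift with position was 0.13 in GFP replicate 3 and between -0.22 and 0.23 in the other libraries, as a description over 62 neighbouring genes. The single cut that best separated the ordered genes of GFP replicate 3 put 11 genes up to CABYR and OSBPL1A, with a median shift of 0.14, on the side of the centromere. On the far side lay 51 genes starting with IMPACT and SS18, with a median of 0.91. CABYR, a calcium-binding protein known from sperm tails, differed by -0.50 in GFP replicate 3 and OSBPL1A, a lipid-binding protein of late endosomes, by 0.19. IMPACT, a regulator of the translation kinase GCN2, differed by 1.19 and SS18, a subunit of the BAF chromatin remodelling complex, by 0.69. This cut took away 6.77% of the summed deviation, and the best cuts of POU5F1B replicates 2 and 3 took away 7.32% and 7.20%. In GFP replicates 1 and 2 and POU5F1B replicate 1 the best cuts took away 2.30%, 3.94% and 1.03%. The proximal stretch was mixed, with the largest difference of the arm, in CABLES1, and differences of 1.90 in RBBP8, 1.55 in LAMA3 and 1.11 in MIB1 beside values near 0 in ABHD3 and TTC39C.

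The gene with the largest difference was CABLES1 (chr18:20714528-20840434, plus strand), whose protein binds cyclin-dependent kinases. It had 3.70, 4.56 and 43.4 CPM in GFP replicates 1, 2 and 3 and 9.73, 10.5 and 26.6 CPM in POU5F1B replicates 1, 2 and 3. GFP replicate 3 was the highest library and POU5F1B replicate 3 the second highest, and the log2 difference of GFP replicate 3 was 3.35, or 10.2-fold. It also sits just inside the minimum, with a mean of 16.1 CPM, and overlaps a gene on the opposite strand, TMEM241. ME2 (chr18:48405450-48480627, plus strand) encodes the NAD-dependent malic enzyme of mitochondria. It had 23.9, 29.9 and 113 CPM in GFP replicates 1, 2 and 3 and 41.2, 42.4 and 56.8 CPM in POU5F1B replicates 1, 2 and 3, a log2 difference of 2.07, and no value of another library reached that of GFP replicate 3. MBP (chr18:74690783-74845639, minus strand) encodes myelin basic protein and, from a longer transcript unit, the Golli proteins that are made outside the nervous system as well. It had 8.91, 13.3 and 45.6 CPM in GFP replicates 1, 2 and 3 and 28.3, 24.5 and 31.6 CPM in POU5F1B replicates 1, 2 and 3, so that all POU5F1B libraries lay above GFP replicates 1 and 2 and below GFP replicate 3, with a log2 difference of 2.05. TRAPPC8 (chr18:29409160-29533099, minus strand), a subunit of a tethering complex of Golgi traffic and autophagy, had 9.41, 13 and 44.5 CPM in GFP replicates 1, 2 and 3 and 10.9, 11.9 and 11 CPM in POU5F1B replicates 1, 2 and 3. Only GFP replicate 3 stood out among these values, by 1.99, while POU5F1B replicate 3 differed by -0.06 from the other POU5F1B libraries. MYO5B (chr18:47349159-47721534, minus strand), the motor of recycling endosomes at the apical side of epithelial cells, had 21.1, 18.4 and 74.7 CPM in GFP replicates 1, 2 and 3 and 30.3, 32 and 42.1 CPM in POU5F1B replicates 1, 2 and 3 and a log2 difference of 1.91.

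A few genes went the other way. ZNF532 (chr18:56529832-56653712, plus strand), a zinc finger protein gene, had 24.1, 25.5 and 11 CPM in GFP replicates 1, 2 and 3 and 14.8, 14.9 and 14.5 CPM in POU5F1B replicates 1, 2 and 3. GFP replicate 3 was the lowest of the 6 libraries there, with a log2 difference of -1.16. ALPK2 (chr18:56148479-56296323, minus strand), an alpha-kinase, had 95.2, 113 and 57.9 CPM in GFP replicates 1, 2 and 3 and 42.8, 46.1 and 20.6 CPM in POU5F1B replicates 1, 2 and 3. Replicate 3 was the lowest library in both groups, with differences of -0.84 for GFP and -1.10 for POU5F1B, and the GFP values all lay above the POU5F1B values. FHOD3 (chr18:33877676-34360183, plus strand), a formin that assembles actin filaments, had 40.1, 31.5 and 23 CPM in GFP replicates 1, 2 and 3 and 12.6, 10.2 and 20.8 CPM in POU5F1B replicates 1, 2 and 3, and replicate 3 differed from replicates 1 and 2 by -0.62 in GFP and by 0.87 in POU5F1B cells. TPGS2 (chr18:34357610-34409179, minus strand), a subunit of the tubulin polyglutamylase, lies next to it and overlaps its end on the opposite strand. It had 40.7, 37.2 and 33.1 CPM in GFP replicates 1, 2 and 3 and 35.3, 34 and 34.6 CPM in POU5F1B replicates 1, 2 and 3, a log2 difference of -0.23. The strand setting of the counting was not stated, so reads in that overlap cannot be assigned with certainty. CABYR (chr18:21718951-21741564, plus strand) had 34.7, 45.2 and 28 CPM in GFP replicates 1, 2 and 3 and 29.3, 32.7 and 35.9 CPM in POU5F1B replicates 1, 2 and 3. Its GFP replicate 3 value was the lowest of the 6 libraries, although LAMA3 nearby was much higher in that library. The remaining genes not above 0 were CTIF with -0.09 and ABHD3 with -0.02.

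**Figure D3:**
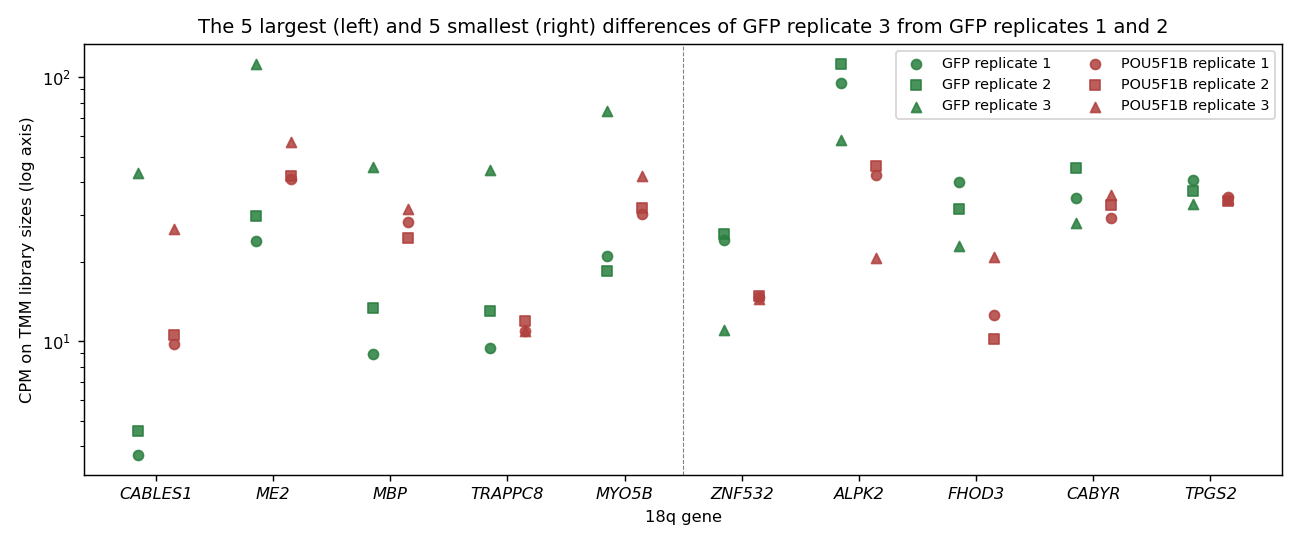
Level (CPM on TMM library sizes, log axis) of the 5 genes with the largest (left) and the 5 with the smallest (right) difference of GFP replicate 3, with 1 point per library, green for GFP and red for POU5F1B, and a circle, square or triangle for replicates 1, 2 and 3. The green triangle is the highest point for CABLES1, ME2, MBP, TRAPPC8 and MYO5B and the lowest for ZNF532, CABYR and TPGS2.

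The promoters of genes with the largest differences in either direction are shown to set the sequence at their starts beside the shift. RefSeq promoters (build GRCh38.p14, 250 bases before to 50 bases after the start, on the strand of the gene) were found for 55 of the 62 genes, and TRAPPC8 was not among them. For each gene only the first listed start was taken, which need not be the start used in SW480 cells. Capitals mark matches on either strand to the TATA box letters TATAAA, to the CCAAT box, to the GC box GGGCGG, to the E-box CACGTG, or to CGCANGCGC, which NRF1 is known to bind. Adjoining matches run together.
CABLES1, chr18:23134314-23134613, plus strand: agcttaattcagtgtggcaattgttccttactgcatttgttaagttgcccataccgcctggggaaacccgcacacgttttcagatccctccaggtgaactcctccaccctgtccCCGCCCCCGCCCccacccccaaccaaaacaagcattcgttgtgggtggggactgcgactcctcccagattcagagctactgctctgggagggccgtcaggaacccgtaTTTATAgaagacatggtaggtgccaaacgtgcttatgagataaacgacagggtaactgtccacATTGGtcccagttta
ME2, chr18:50878868-50879167, plus strand: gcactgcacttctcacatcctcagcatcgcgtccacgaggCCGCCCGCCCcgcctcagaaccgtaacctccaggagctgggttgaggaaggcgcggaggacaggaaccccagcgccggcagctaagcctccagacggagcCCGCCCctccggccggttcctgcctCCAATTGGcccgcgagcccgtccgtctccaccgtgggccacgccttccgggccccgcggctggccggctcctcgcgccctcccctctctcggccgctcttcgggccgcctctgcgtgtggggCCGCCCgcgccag
MBP, chr18:77132734-77133033, minus strand: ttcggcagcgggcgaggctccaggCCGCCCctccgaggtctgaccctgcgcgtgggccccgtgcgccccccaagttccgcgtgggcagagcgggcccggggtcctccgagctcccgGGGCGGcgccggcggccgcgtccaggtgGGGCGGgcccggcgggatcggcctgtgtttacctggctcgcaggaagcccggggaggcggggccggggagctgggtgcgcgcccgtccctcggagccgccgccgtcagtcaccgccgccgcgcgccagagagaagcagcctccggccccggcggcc
ZNF532, chr18:58862674-58862973, plus strand: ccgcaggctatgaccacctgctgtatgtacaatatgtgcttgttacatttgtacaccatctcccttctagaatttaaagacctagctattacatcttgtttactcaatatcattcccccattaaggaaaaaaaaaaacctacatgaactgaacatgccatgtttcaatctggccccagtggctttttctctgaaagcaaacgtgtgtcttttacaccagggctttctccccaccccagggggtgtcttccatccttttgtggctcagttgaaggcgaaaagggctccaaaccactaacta
ALPK2, chr18:58629042-58629341, minus strand: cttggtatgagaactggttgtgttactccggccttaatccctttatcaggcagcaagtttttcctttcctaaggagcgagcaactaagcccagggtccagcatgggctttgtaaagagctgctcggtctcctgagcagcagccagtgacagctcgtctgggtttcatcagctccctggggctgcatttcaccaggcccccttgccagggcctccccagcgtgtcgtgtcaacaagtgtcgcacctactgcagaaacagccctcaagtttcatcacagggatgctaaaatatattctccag
CABLES1, ME2 and MBP each held GGGCGG more than once, at 2, 4 and 3 matches, and the windows of ZNF532 and ALPK2 held no match to any of the 5 motifs. ZNF532 and ALPK2 also had few CpG dinucleotides, 3 and 7, against 11, 35 and 44 in CABLES1, ME2 and MBP. This split did not extend to every lower gene, since the promoter of FHOD3 had 42 CpG and 5 matches to GGGCGG.

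As a set, the 18q promoters looked like those of other genes at this level. GGGCGG was found in 41 of 55, or 74.5%, against 73.9% of 6748 promoters of genes off chromosome 18 at the minimum and 45.0% of all 35116 promoters of the table. CCAAT was found in 23 (41.8%, against 36.97% and 34.6%) and TATAAA in 3 (5.45%, against 4.89% and 11.5%). CGCANGCGC was found in 8 (14.5%, against 17.2% and 7.47%) and CACGTG in 3 (5.45%, against 10.8% and 7.26%). The median GC content of the windows was 67.0% on 18q and 66.0% off chromosome 18, with a median of 28 CpG in both.

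By role, the genes were placed in lists drawn up from general knowledge with earlier results of these data in view. Of the 62 genes, 58 fell in a list. CABLES1, TRAPPC8, SKA1, SEC11C, RTTN and CYB5A are in these lists and reached the minimum only with GFP replicate 3. Counts and medians by role that include them are therefore in part set by that library. The counts by role stand beside 88.7% above 0 and 45.2% more than 2-fold higher among all 62 genes. Over the 8268 protein-coding genes of the same level these shares were 54.5% and 10.5%. Differences between roles were not tested. The 11 genes of membrane trafficking and organelles were all above 0 in GFP replicate 3, with a median of 1.29 and 7 more than 2-fold higher. The most abundant of them was LMAN1, a lectin that carries glycoproteins from the endoplasmic reticulum to the Golgi. It had 74.1, 78.1 and 186 CPM in GFP replicates 1, 2 and 3 and 90.1, 98.3 and 77.3 CPM in POU5F1B replicates 1, 2 and 3, the highest value by far in GFP replicate 3, and a log2 difference of 1.29. Besides MYO5B and TRAPPC8, the largest differences in this list were 1.60 for SEC11C, a catalytic subunit of the signal peptidase, 1.48 for TMX3, a disulfide isomerase of the endoplasmic reticulum, and 1.46 for VPS4B, the ATPase that takes ESCRT-III filaments apart. DYM, a Golgi protein, differed by 1.24 and PIGN, an enzyme of GPI anchor synthesis, by 0.88. The smallest differences were 0.39 for the autophagy tether EPG5, 0.27 for RMC1, a partner of the MON1-CCZ1 complex that overlaps an abundant gene on the opposite strand, and that of OSBPL1A.

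The 4 ubiquitin ligases were also all above 0, with a median of 0.93. MIB1, a ligase of Notch ligands, had 66.4, 85.5 and 163 CPM in GFP replicates 1, 2 and 3 and 73.8, 90.3 and 59.97 CPM in POU5F1B replicates 1, 2 and 3, and differed by 1.11 in GFP replicate 3. POU5F1B replicate 3 was its lowest library, at -0.44 from the other POU5F1B libraries. RNF138, a ligase of the DNA damage response, differed by 1.70, NEDD4L, which ubiquitinates the epithelial sodium channel, by 0.74, and MEX3C, an RNA-binding ligase, by 0.64.

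Genes of mitochondria and metabolism numbered 11, with a median of 1.00, 10 above 0 and 6 more than 2-fold higher. ATP5F1A, the alpha subunit of the mitochondrial ATP synthase, was the most abundant 18q gene of all. It had 337, 327 and 536 CPM in GFP replicates 1, 2 and 3 and 323, 344 and 394 CPM in POU5F1B replicates 1, 2 and 3. GFP replicate 3 was again the highest library, with a log2 difference of 0.69, and POU5F1B replicate 3 followed. After ME2, the largest differences were 1.82 for cytochrome b5 (CYB5A), 1.31 for the prostaglandin reductase PTGR3, 1.14 for TIMM21 of the inner-membrane protein translocase and 1.11 for ACAA2, a thiolase of fatty acid oxidation. The peptidase CNDP2 differed by 1.00 and the phosphatase-like HDHD2 by 0.94. KDSR of sphingolipid synthesis differed by 0.75 and FECH of haem synthesis by 0.48. ABHD3, a phospholipase, lay close to the centromere next to SNRPD1 and had 29.1, 29.9 and 29.2 CPM in GFP replicates 1, 2 and 3 and 34, 42.4 and 29.7 CPM in POU5F1B replicates 1, 2 and 3.

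Of 10 genes of RNA processing and translation, 9 were above 0 and 5 more than 2-fold higher, with a median of 1.01. SNRPD1, a core protein of spliceosomal particles, had 133, 142 and 223 CPM in GFP replicates 1, 2 and 3 and 162, 184 and 158 CPM in POU5F1B replicates 1, 2 and 3. It was highest in GFP replicate 3, by 0.70. NARS1, the cytosolic asparaginyl-tRNA synthetase, had 67.3, 74.4 and 218 CPM in GFP replicates 1, 2 and 3 and 93.8, 101 and 105 CPM in POU5F1B replicates 1, 2 and 3 and the largest difference of the list, 1.62. The list also held RPRD1A, which binds the tail of RNA polymerase II, with 1.20, the Elongator subunit ELP2 with 1.12, the spliceosomal TXNL4A with 1.12, the ribosomal RPL17 with 0.69, the kinase RIOK3 with 0.18 and CTIF, which acts in translation from the nuclear cap-binding complex. TXNL1, a thioredoxin-like protein bound to the proteasome, was placed in this list although its role lies elsewhere, and it differed by 0.90. RPL17 shares sequence with a readthrough transcript, so its count from uniquely mapped reads is uncertain.

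Of the transcription factors, chromatin proteins and DNA repair genes, 7 of 8 were above 0, 3 were more than 2-fold higher and ZNF532 more than 2-fold lower, with a median of 0.54. RBBP8, which starts the resection of DNA ends in homologous recombination, had 39.5, 51.7 and 169 CPM in GFP replicates 1, 2 and 3 and 41, 65.8 and 34 CPM in POU5F1B replicates 1, 2 and 3. It was over 2-fold higher in GFP replicate 3 than in any other library, at 1.90, and POU5F1B replicate 3 was the lowest. ZNF24, a zinc finger repressor, differed by 1.69 and MBD2, a reader of methylated CpG, by 1.24. MBD1, a protein of the same family, differed by 0.33, its neighbour CXXC1, a subunit of a histone H3K4 methyltransferase complex, by 0.40, and ADNP2, the last gene towards the telomere, by 0.20.

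In cell death and signalling, 5 of 6 genes were above 0 with a median of 0.84, and CABLES1 was more than 2-fold higher. MALT1, the paracaspase of NF-κB signalling, had 71.3, 80.2 and 143 CPM in GFP replicates 1, 2 and 3 and 63.8, 78.9 and 50.5 CPM in POU5F1B replicates 1, 2 and 3, and differed by 0.92. PMAIP1, which encodes the BH3-only protein NOXA, differed by 0.88, PSTPIP2, an adaptor that binds membranes and actin, by 0.81, and the AKT phosphatase PHLPP1 by 0.52. Genes of mitosis and the cytoskeleton had a median of 0.52 over 5 genes, of which 3 were above 0. These were HAUS1 of the augmin complex with 1.30, the centriole protein RTTN with 0.88 and SKA1 of the outer kinetochore with 0.52. RTTN and SKA1, like CABLES1, reached the minimum only with GFP replicate 3. In glycosylation, matrix and adhesion, LAMA3, GALNT1 and the zinc transporter SLC39A6 differed by 1.55, 0.95 and 1.07. The 4 genes in no list were MBP, C18orf25 with 0.83, TTC39C with 0.01 and CABYR.

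**Figure D4:**
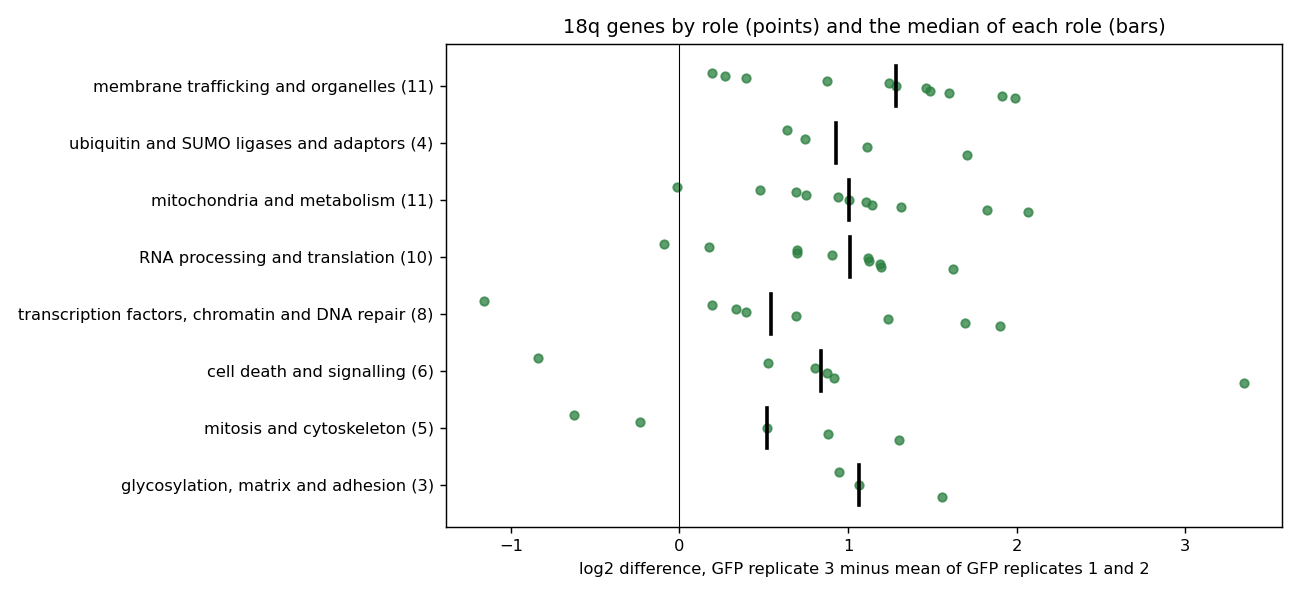
Difference of GFP replicate 3 from the mean of GFP replicates 1 and 2 (log2, horizontal axis) for the 18q genes of each role (points, with the number of genes in brackets), and the median of each role (bars). The medians lie between 0.52 (mitosis and cytoskeleton) and 1.29 (membrane trafficking), and all 11 trafficking genes lie above 0. Over all 62 genes the median was 0.91 and 88.7% lay above 0. Points include CABLES1, TRAPPC8, SKA1, SEC11C, RTTN and CYB5A, which reached the minimum only with GFP replicate 3.

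Some well-known genes of the arm fell under the minimum. BCL2, the inhibitor of apoptosis, had 10, 14 and 45 counts in GFP replicates 1, 2 and 3 and 14, 14 and 16 in the POU5F1B replicates. TCF4, a basic helix-loop-helix factor, was counted 4, 1 and 12 times in the GFP replicates and 0, 0 and 6 times in those of POU5F1B. For DCC a single count was found, in POU5F1B replicate 3. BCL2 and TCF4 were thus also highest in GFP replicate 3, on few reads. None of the 10 clade B serpins, a cluster of protease inhibitor genes, reached the minimum. SERPINB5, which encodes maspin, was just outside it with a mean of 15.9 CPM, and was counted 42, 47 and 322 times in the GFP replicates and 293, 233 and 206 times in those of POU5F1B. PIAS2, a SUMO ligase with a mean of 15.8 CPM, was the next gene outside, with a log2 difference of 1.10 in GFP replicate 3, and on the inside CABLES1 was followed by TRAPPC8 with 16.4 CPM.

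POU5F1B cells were then compared with GFP cells over all 6 libraries. No 18q gene passed an adjusted p under 0.05 with a fold change above 2, in voom of limma over 14286 genes (background 0%). In that fit POU5F1B itself did not pass, with a log2 fold change of 10.7 and an adjusted p of 0.252 in voom. The absence of calls is therefore not a result about 18q. Without adjustment 3 genes had a p under 0.05, all lower in POU5F1B cells (background 11.9% in both directions, 5.82% lower). The quasi-likelihood test of edgeR also called 0 genes, with 3 at an unadjusted p under 0.05, and the Wald test of DESeq2 called 2, GALNT1 and ALPK2, or 3.23% of the 62, where it called 232 genes, or 1.62%, in all. The groups did not overlap in 4 genes, ALPK2, FHOD3, CTIF and GALNT1, which were all lower in POU5F1B cells (background 19.4% in both directions, 9.24% lower). The smallest adjusted p among the 62, 0.269 in voom, belonged to GALNT1, an enzyme that starts mucin-type O-glycosylation. It had 36.4, 39.1 and 72.8 CPM in GFP replicates 1, 2 and 3 and 20.2, 20.1 and 23.7 CPM in POU5F1B replicates 1, 2 and 3, and a log2 fold change of -1.13 ± 0.31 (SE, n = 3 libraries per group). ALPK2 had -1.32 ± 0.37 and FHOD3 -1.14 ± 0.32, both with an adjusted p of 0.285 in voom.

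The level of 18q as a whole between the groups turned on GFP replicate 3. The median log2 fold change of the 62 genes was -0.09, with 19 above 0, where the median of all tested genes was -0.02, and it was -0.19 in edgeR and -0.18 in DESeq2. Without GFP replicate 3 the median was 0.17, and 4 genes passed the threshold (LAMA3, FHOD3, ALPK2 and MBP) among 595 of the 14286 genes.

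The comparison was therefore also made within replicates 1 and 2, a split chosen because both replicate 3 libraries were known to stand apart. There 5 of the 62 genes passed the threshold, or 8.06% (background 8.36%). For this contrast the background is over all 14286 tested genes, which include genes of lower level. Among the 8268 protein-coding genes at 16 CPM or more, 1.37% were more than 2-fold higher and 2.49% more than 2-fold lower. These shares rest on the difference of means alone, without a p-value, and were 4.84% and 3.23% in the 62 genes. LAMA3, the alpha 3 chain of the basement membrane laminins of epithelia, was higher in POU5F1B cells. It had 48.3, 49.7 and 144 CPM in GFP replicates 1, 2 and 3 and 128, 111 and 78.3 CPM in POU5F1B replicates 1, 2 and 3. The replicates 1 and 2 did not overlap between the groups, and their log2 fold change was 1.27 ± 0.11 (SE, n = 2 libraries per group), with an adjusted p of 4.57e-06 in voom. GFP replicate 3, however, was the highest library of all. CABLES1 and MBP were higher as well, with log2 fold changes of 1.27 ± 0.22 and 1.25 ± 0.19 and adjusted p of 0.00117 and 0.000402 in voom. In both of these genes too, GFP replicate 3 exceeded every POU5F1B library. These 3 made 4.84% of the 62 genes (background 3.21% higher).

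FHOD3 and ALPK2 were lower in POU5F1B replicates 1 and 2, or 3.23% of the 62 genes (background 5.15% lower). Their log2 fold changes were -1.65 ± 0.18 and -1.24 ± 0.11, with adjusted p of 3.63e-05 and 8.57e-06 in voom. At replicate 3 ALPK2 stayed clearly lower in POU5F1B cells, with 57.9 CPM in GFP and 20.6 CPM in POU5F1B. FHOD3 was only slightly lower there, with 23 CPM in GFP and 20.8 CPM in POU5F1B. The direction thus held for both at replicate 3, unlike for the 3 higher genes. Replicate 3 is not an equal check, since POU5F1B itself had 121 CPM in POU5F1B replicate 3. In POU5F1B replicates 1 and 2 it had 1179 and 1054 CPM. The part of that lower level in these values was not tested. An adjusted p under 0.05 alone was reached by 17 genes, 11 higher (background 14.1%) and 6 lower (background 15.5%).

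By role list, counting all tested 18q genes of each list, no gene passed the threshold over the 6 libraries. Within replicates 1 and 2, membrane trafficking had 1 higher gene of 18 tested, mitochondria and metabolism 2 higher of 15, and the transcription factor list 1 lower of 21. Cell death and signalling had 1 higher and 1 lower of 8, mitosis and cytoskeleton 1 lower of 8, glycosylation and matrix 1 higher of 5, and the clade B serpins 1 higher of 2. None of the 8 ubiquitin ligase genes and none of the 12 genes of RNA processing and translation passed. Over all tested genes 3.21% were higher and 5.15% lower, and calls of 0 to 2 genes in lists of this size say little beside that background.

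**Figure D5:**
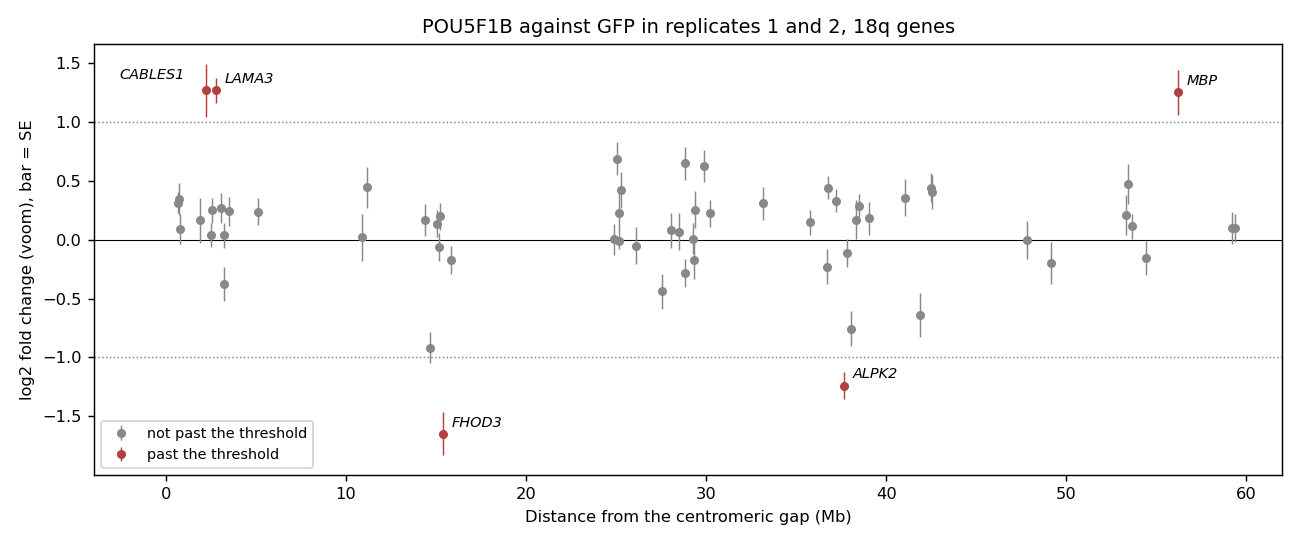
Fold change of POU5F1B against GFP in replicates 1 and 2 (log2, voom, with its SE) for the 62 genes against distance from the centromeric gap in Mb; red points passed the threshold and dotted lines mark a 2-fold change. The 5 genes that passed, LAMA3, CABLES1 and MBP above 0 and FHOD3 and ALPK2 below 0, are spread along the arm, with LAMA3 and CABLES1 both close to the centromere.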

How the data were processed

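RNA sequencing counts of 6 SW480 libraries were analysed, 3 of GFP cells and 3 of POU5F1B cells, grouped and numbered by their titles. The authors deposited whole-number counts per gene, 1 table per library, without normalization. To make these counts, per the submitters' processing notes and the study's methods, the authors mapped reads to hg19 with HISAT2 and counted uniquely mapped reads with featureCounts, on an annotation of genes and transposable elements, so reads of repeated sequences are lost. The strand setting and the annotation release are not given in the sources used here, so counts of overlapping genes are uncertain.

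The members, the lists of roles and the tests were chosen with earlier results of these data known. A symbol was found for 87.4% of identifiers. Coordinates are 1-based on GRCh37 from GENCODE, with arms divided at the centromeric gap. Levels are CPM on TMM library sizes (edgeR 4.0.16), with a prior count of 2 before taking log2. After filterByExpr, 14286 genes, all 62 members included, were tested with voom of limma 3.58.1 (R 4.3.3), two-sided, with no block and p adjusted over all of them by Benjamini-Hochberg. The threshold was an adjusted p under 0.05 together with a fold change above 2. Alternatives were edgeR's quasi-likelihood test, DESeq2 1.42.0, its size factors, total counts, no filter, the replicate block, other minimum levels, another prior count, subtraction of the median of other chromosomes, a correction for GC content and length (a spline of 5 degrees of freedom for each, library by library) and leaving out each library. The fits were tested on simulated data. Of tested genes 98.1% had a GC content and length. Floors cover counting error only.

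Genes named by rule were the 5 largest and 5 smallest differences of GFP replicate 3, genes past the threshold, the 3 most abundant members, those beside the positional cut and the minimum, the most abundant member of each list, and BCL2, DCC, MALT1, TCF4, NEDD4L, MBD1, PMAIP1 and LAMA3; the other members are named once each to account for all of them.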

Additional observations from a re-analysis of the deposited data

How the results depend on the processing

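The count of 18q genes past the threshold over all libraries (0) was 2 with the DESeq2 Wald test and 0 to 4 when 1 library was left out, the 4 being without GFP replicate 3; the other settings gave 0. Within replicates 1 and 2 the count of 5 was 1 at a minimum of 64 CPM, which leaves 12 genes, 7 at a minimum of 4 CPM, which leaves 91, and 4 to 5 when 1 library was left out, MBP being lost without GFP replicate 1 (log2 fold change 0.98); there a group of 1 library is left, assumed to vary like the other group. The median log2 fold change of -0.09 was -0.19 with edgeR and -0.18 with DESeq2, and ranged from -0.24 to 0.17 when 1 library was left out and was -0.23 without GFP replicate 1, -0.24 without GFP replicate 2 and 0.17, the reverse direction, without GFP replicate 3. The median difference of GFP replicate 3 (0.91) was 0.78 with total counts and 0.58 with the correction for GC content and length, and 0.85 to 1.01 otherwise; the count of genes more than 2-fold higher (28) was 22 with total counts and 13 with the correction. Total counts moved the median of genes off chromosome 18 from 0.06 to -0.07, and relative to that median the 18q value was 0.85 under both. The median difference of POU5F1B replicate 3 (0.12) was -0.12, the reverse direction, at a minimum of 64 CPM. Cause was not tested in these cases, beyond the smaller number of genes or libraries. With the replicate block the counts were again 0 over all libraries, with a median of -0.14, and 5 within replicates 1 and 2; the deviations of libraries with the same number correlated at 0.24, 0.088 and 0.16, not all above 0.1, and no label names a shared batch or day, so the libraries were not treated as pairs. Of the checks on single named genes, 62 of 70 on GFP replicate 3 and 49 of 50 within replicates 1 and 2 kept their value or call.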
